A study of Mus musculus with 6 samples.

Results

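Germ cells of the fetal gonad decide between the male and the female path as embryos pass through midgestation, and 7 genes that act at or just after that decision are described here across 6 arrays: Stra8, Meioc, Ythdc2, Rec8, Dazl, Taf7l and M1ap. They were taken by name from the 19937 genes that had a probe set annotated to 1 gene, each has 1 such probe set, and all 7 were found (Meioc under its current symbol). Stra8, Meioc, Taf7l, M1ap and Rec8 were put on this list because they are among the largest increases in the mutant gonads, that is, they were chosen by their difference between the groups on these same arrays. The differences are therefore given for all 7 as a description, without a test.

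RNA came from mouse gonads dissected without the mesonephros at E13.5 (embryonic day), on a mixed background of C57BL6/J and 129. Wild-type gonads were measured on arrays 1, 2 and 5, each a pool of 6 gonads, and gonads labelled Sox9flox/flox; Sf1:creTr/+ on arrays 3, 4 and 6, each a pool of 12. In the second group, called the mutant below, Cre recombinase under regulatory sequence of Sf1 (also named Nr5a1), which is active in somatic cells of the gonad, acts on floxed alleles of Sox9. Neither floxed gonads without Cre nor Cre-positive gonads without floxed alleles were among the 6 arrays, so effects of the transgene cannot be told apart from those of Sox9. The labels name no embryo sex and no litter, and p-values measure only the spread between these pools.

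In mice, germ cells of the fetal ovary enter meiosis before birth, while those of the fetal testis stop dividing and wait until after birth. Retinoic acid and BMP signals from the somatic cells are known to induce Stra8 in germ cells made competent by the RNA-binding protein DAZL. Testicular Sertoli cells, which need SOX9, make CYP26B1, an enzyme that breaks down retinoic acid. STRA8 is a transcriptional regulator of meiotic entry, MEIOC and YTHDC2 form an RNA-binding complex that ends the mitotic programme, REC8 is the kleisin subunit of meiotic cohesin, TAF7L is a germ cell paralog of the general transcription factor subunit TAF7, and M1AP is a protein needed for meiotic prophase.

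The values are log2 RMA levels. A background mark of 6.67 log2, below which 95% of 1204 probe sets for olfactory and vomeronasal receptors have their mean, shows where levels stop being distinguishable from silent genes, and RMA compresses differences below it. Medians of the 6 arrays ran from 7.17 to 7.24 log2. Sox9 measured 8.82, 8.81 and 9.20 log2 on the wild-type arrays and 7.52, 7.78 and 7.60 on the mutant arrays. Of the gonadal genes Nr5a1, Gata4, Wt1, Lhx9 and Emx2, all 5 lay above the mark on each array. Emx2, Lhx9 and Wt1 were higher in the mutant by 1.61, 0.76 and 0.57 log2 (limma adjusted p = 0.00252, 0.0149 and 0.0239). Nr5a1 and Gata4 did not pass an adjusted p of 0.05.

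Some arrays stood apart before any comparison. Xist, the transcript of the inactive X chromosome, measured 7.29 log2 on mutant 3 and between 4.97 and 5.48 on the 5 other arrays. The Y-linked genes Kdm5d, Uty and Eif2s3y measured 7.98, 8.02 and 9.59 log2 on that array, against lowest values of 7.98, 8.33 and 9.56 on the others. On wild type 5 all 8 measured liver genes of 9 listed were at their highest. Their summed linear level was 8230 there, 861 and 933 on wild type 1 and 2, and 809 to 917 on the mutant arrays. Mutant 4 kept more transcripts of Sertoli and Leydig cells than the other mutant pools. Amh, a hormone of Sertoli cells, measured 8.91 log2 on mutant 4 against 5.91 and 5.89 on mutants 3 and 6, and 11.09 or more in wild type. Cyp11a1, a steroid-producing enzyme of Leydig cells, measured 9.41 log2 against 5.96 and 5.98, and 11.80 or more in wild type. Xist, the Y-linked genes, Amh and Cyp11a1 were chosen after their values were seen. The part of these arrays in the results was not tested. Differences of the 7 regulators are given below without mutant 3 and without wild type 5, and for other genes the calls and counts that change when an array is left out are named.

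All 7 genes were higher on every mutant array than on any wild-type array. Among all genes 12.1% were separated in that way, but as the list was drawn up with this contrast known, nothing can be read from that. Likewise 6 of the 7, all but Dazl, were among the genes called higher by limma at an adjusted p of 0.05, a call made for 2.64% of all genes. The median of the 7 differences was 2.78 log2, against 0.00 for all genes. In bulk gonads a change in the number of germ cells and a change in RNA per germ cell cannot be told apart.

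**Figure D1:**
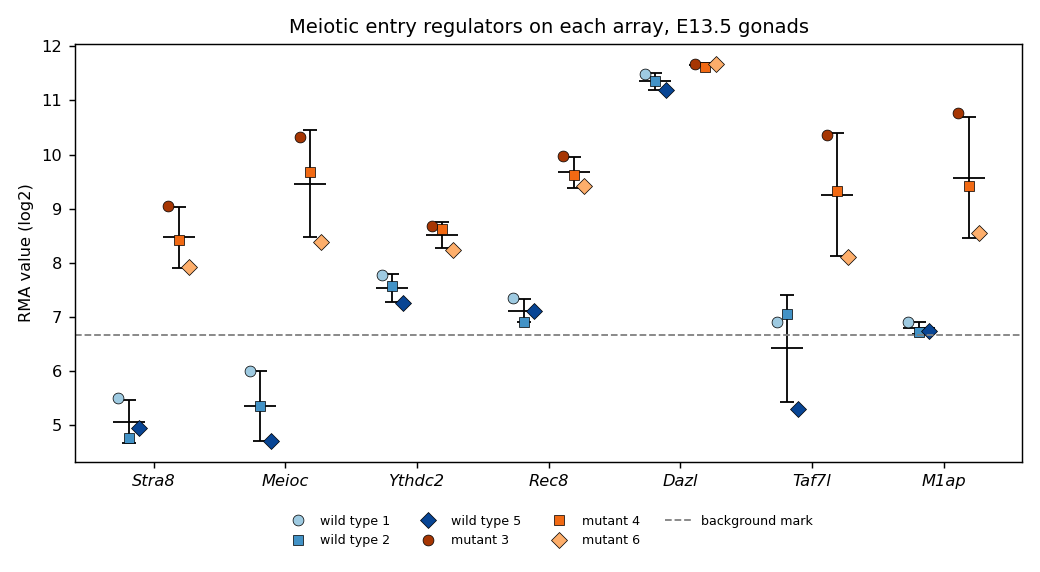
RMA values (log2, vertical axis) of the 7 meiotic entry regulators on 3 wild-type arrays (blue) and 3 mutant arrays (orange), with group means and standard deviations as horizontal marks and bars and the background mark of 6.67 log2 as a dashed line. Stra8 and Meioc lie below the mark on every wild-type array and above it on every mutant array, while Dazl lies far above it on all 6.

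Stra8, the gatekeeper of meiotic entry, measured 5.50, 4.76 and 4.96 log2 on wild type 1, 2 and 5 and 9.05, 8.42 and 7.92 on mutants 3, 4 and 6. The wild-type arrays were all below the background mark and the mutant arrays all above it, with 2.42 log2 between the nearest values of the groups. The difference was 3.39 ± 0.28 log2 (SE, 3 arrays per group), a 10.5-fold change that is understated because the wild-type level is at background. Without mutant 3 it was 3.10 log2 and without wild type 5 it was 3.33.

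Meioc, which encodes the partner of YTHDC2, measured 6.01, 5.36 and 4.71 log2 on the wild-type arrays and 10.33, 9.68 and 8.39 on the mutant arrays. As for Stra8, no wild-type array reached the background mark and each mutant array passed it. The difference of 4.11 ± 0.46 log2 was the largest increase among all 19937 genes, and Stra8 ranked 3. For Meioc it was 3.67 log2 without mutant 3 and 3.78 without wild type 5.

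Ythdc2, the RNA helicase that MEIOC binds, differed from its partner in being present in wild type. It measured 7.77, 7.58 and 7.26 log2 there and 8.68, 8.62 and 8.24 in the mutant. The groups were separated by 0.47 log2, and the difference was 0.97 ± 0.17 log2, a 1.96-fold change (0.89 log2 without mutant 3 and 0.84 without wild type 5). The difference of Meioc was thus larger than that of Ythdc2 on each mutant array (4.97, 4.32 and 3.03 against 1.14, 1.08 and 0.70 log2 above the wild-type mean).

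Rec8 measured 7.35, 6.90 and 7.11 log2 in wild type, close above the mark, and 9.97, 9.63 and 9.41 in the mutant. Among the 5 genes with large differences it had the smallest spread on the mutant arrays, with a standard deviation of 0.28 log2, against 0.22 on the wild-type arrays. The difference was 2.55 ± 0.17 log2 (SE), or 5.87-fold, and it was 2.40 log2 without mutant 3 and 2.55 without wild type 5.

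Dazl, which marks germ cells of either sex and licenses them for meiosis, hardly differed. It measured 11.49, 11.36 and 11.20 log2 on the wild-type arrays and 11.68, 11.62 and 11.67 on the mutant arrays. The nearest values of the groups lay 0.14 log2 apart and the difference was 0.31 ± 0.12 log2 (SE), or 0.30 without mutant 3 and 0.23 without wild type 5. Ddx4, an RNA helicase of germ cells that is no member of the list, measured 10.91, 10.95 and 10.87 log2 on the wild-type arrays and 11.06, 11.10 and 11.11 on the mutant arrays, a difference of 0.18 ± 0.10 log2 that did not pass (limma adjusted p = 0.409). Set against Ddx4, the increase of Dazl was 0.13 log2, that of Ythdc2 0.80 and that of Stra8 3.21. The other germ cell markers Mael, Kit, Nanos3 and Pou5f1 differed in direction (0.69, 0.51, -0.55 and -0.58 log2), and none of them passed. The values set against Ddx4 are therefore no correction for the number of germ cells.

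Taf7l measured 6.90, 7.06 and 5.30 log2 on the wild-type arrays and 10.36, 9.32 and 8.10 on the mutant arrays. It had the widest spread of the 7 in wild type, where array 5, the one with liver transcripts, was the low value. The difference of 2.84 ± 0.58 log2 (SE) was 2.28 without wild type 5, 2.29 without mutant 3 and 1.73 without both, a choice of arrays made after their values were seen. M1ap measured 6.91, 6.72 and 6.74 log2 in wild type, tightly grouped at the background mark, and 10.76, 9.41 and 8.55 in the mutant. Its difference was 2.78 ± 0.44 log2 (SE), and it was 2.19 without mutant 3 and 2.76 without wild type 5.

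The mutant arrays were not alike. Mutant 3 was highest for all 7 genes, and mutant 6 was the lowest mutant array for 6 of them, Dazl excepted. From mutant 3 to mutant 6 the distance was 2.26 log2 for Taf7l, 2.22 for M1ap and 1.95 for Meioc. It was 1.13 log2 for Stra8, 0.56 for Rec8, 0.44 for Ythdc2 and 0.01 for Dazl. The distances were graded, without a clear division between the genes. Rec8 lay 2.85 log2 above its wild-type mean on mutant 3 and 2.29 on mutant 6, and M1ap 3.97 and 1.76. Xist was raised on mutant 3 alone, and its part in this order was not tested.

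The arrays were also divided by the numbers in their labels into 1 to 4 and 5 and 6. The labels name no batch, so this division is a choice made here. Among numbers 1 to 4 the increase was 3.61 log2 for Stra8, 4.32 for Meioc, 2.68 for Rec8, 2.86 for Taf7l, 3.27 for M1ap, 0.97 for Ythdc2 and 0.23 for Dazl. Between numbers 5 and 6, with 1 array per group, it was 2.96, 3.67, 2.30, 2.80, 1.80, 0.98 and 0.47 log2 in the same order. Each gene was thus higher in the mutant within both sets, and M1ap was the gene whose value differed most between them.

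Other meiotic genes were compared with the regulators. Of 52 genes listed for recombination, cohesin, the synaptonemal complex and early meiotic transcription, 44 were measured, and 13 rose, 0 fell and 31 did not pass (median difference 0.77 log2, against 0.00 for all genes). The share that rose was 29.5%, against 2.64% of all genes, and 31 of the 44 had an unadjusted p under 0.05, as did 21.7% of all genes. The largest increases were in Meiob, a single-strand DNA-binding protein of recombination (2.65 ± 0.55 log2, limma adjusted p = 0.0237), Sycp3, of the chromosome axis (2.34 ± 0.43, 0.0142), Smc1b, the meiotic SMC cohesin subunit (2.05 ± 0.28, 0.00367), and Dmc1, the meiotic recombinase (1.96 ± 0.43, 0.0293). Meiob measured 4.28, 3.99 and 3.77 log2 on the wild-type arrays and 8.10, 6.57 and 5.33 on the mutant arrays. It was thus above the background mark on mutant 3 alone. Smc1b measured 9.33, 8.65 and 8.41 log2 on the wild-type arrays and 11.37, 10.82 and 10.36 on the mutant arrays, and its call was kept in all 15 alternatives. The calls of the other 3 were less stable. That of Meiob was kept in 7 of 14 alternatives and that of Dmc1 in 7 of 15, with limma adjusted p up to 0.154 and 0.196. Both calls ended with wild type 1, 2 or 5 or mutant 4 left out, and that of Dmc1 also without mutant 3. The call of Sycp3 was kept in 12 of 15 (limma adjusted p up to 0.116) and ended in none of the fits that left out a single array. The count of 13 rested on the number of arrays and on the mutant pools. Leaving out wild type 1, 2 or 5 gave 2, 4 or 3, and leaving out mutant 3, 4 or 6 gave 6, 5 or 28.

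The 7 regulators and the other meiotic genes were also compared array by array. On mutant 3 the median level above the wild-type mean was 3.94 log2 for the 7 regulators and 1.44 for the 44 other genes. On mutant 4 these medians were 2.62 and 0.76 log2, and on mutant 6 they were 1.76 and 0.20. Of the 44 other genes 24 had a wild-type mean below the background mark, and 11 had both group means below it. Among the 7 regulators 3 had a wild-type mean below it. Differences of such genes can be compressed, though Taf7l was below the mark on wild type 5 alone. All 7 regulators exceeded every wild-type array on mutant 6, as did 23 of the 44 other genes, against 39 on mutant 3 and 38 on mutant 4. Of all genes 33.5% exceeded every wild-type array on mutant 3, 30.5% on mutant 4 and 26.7% on mutant 6. Spo11, which makes the DNA breaks of recombination, measured 6.23, 6.22 and 5.69 log2 on the wild-type arrays and 7.25, 6.62 and 6.06 on the mutant arrays, so that mutant 6 lay inside the wild-type range. All its values but that of mutant 3 were below the background mark. Sycp1, of the synaptonemal complex, measured 9.49, 8.74 and 7.62 log2 on mutants 3, 4 and 6 and up to 7.52 in wild type. Neither passed (limma adjusted p = 0.276 and 0.0538). Spo11 and Sycp1 were chosen after their values were seen, and as the regulators were picked for their increase, the gap between the medians was not tested.

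**Figure D2:**
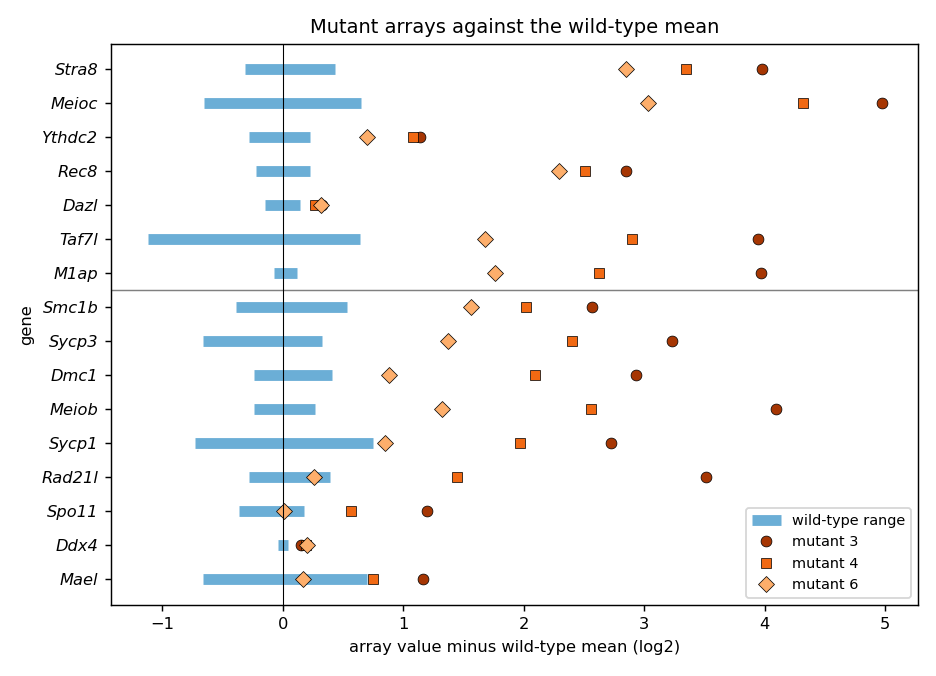
Values of mutants 3, 4 and 6 minus the wild-type mean (log2, horizontal axis) for the 7 regulators (above the line) and 9 other germ cell genes (below it); bars span the 3 wild-type arrays. Stra8, Meioc and Rec8 lie 2.29 log2 or more above the wild-type mean on mutant 6. M1ap, Taf7l, Ythdc2 and Dazl lie 1.76, 1.68, 0.70 and 0.32 log2 above it there. Rad21l, Spo11 and Mael lie inside the wild-type range on mutant 6. On that array Rad21l and Spo11 are below the background mark.

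Taf7 and Rad21, the broadly expressed paralogs of Taf7l and Rec8, did not share the increase of these regulators. Taf7, the broadly expressed paralog of Taf7l, averaged 8.60 ± 0.24 log2 (SD over 3 arrays) in wild type against 8.38 ± 0.12 in the mutant (limma adjusted p = 0.471), and Taf4b, a germ cell TFIID subunit, 9.36 ± 0.24 and 9.70 ± 0.30 (adjusted p = 0.366). Of 20 TFIID subunits and paralogs none passed in either direction in the limma fit (1 with an unadjusted p under 0.05, median difference -0.06 log2), with Taf15 and Taf10 brightest. Over all genes 2.64% were called higher and 4.3% lower. Rad21, the mitotic counterpart of Rec8, measured 11.97, 11.89 and 11.84 log2 on the wild-type arrays and 11.19, 11.52 and 11.69 on the mutant arrays, where all values were lower without passing (difference -0.44 ± 0.14 log2, limma adjusted p = 0.126). Rad21l, the other meiotic kleisin, measured at most 4.67 log2 on the wild-type arrays and 7.79, 5.73 and 4.54 on mutants 3, 4 and 6, so it exceeded wild type on mutants 3 and 4 and not on mutant 6 (difference 1.74 ± 0.65 log2, limma adjusted p = 0.178). Without mutant 6 Rad21l passed (limma adjusted p = 0.021, with values up to 0.429 over its alternatives).

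Among 18 other cohesin genes Pds5a, a cohesin release and maintenance factor, rose by 0.46 ± 0.11 log2 and 17 did not pass (median difference -0.03 log2). The share that rose was 5.56%, against 2.64% of all genes. The call of Pds5a ended without any 1 of the 6 arrays (limma adjusted p up to 0.245). Ythdc1, a nuclear reader of the RNA mark m6A, averaged 10.18 ± 0.06 log2 (SD over 3 arrays) in wild type against 10.16 ± 0.16 in the mutant (limma adjusted p = 0.969). In the list of m6A writers, erasers and readers, the family to which YTHDC2 belongs, none of 17 measured genes passed in the limma fit (2 with an unadjusted p under 0.05), and its brightest genes Wtap and Hnrnpa2b1 had differences of 0.03 and 0.11 log2. The shares over all genes were 2.64% higher and 4.3% lower.

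Boll, the paralog of Dazl that acts in later meiosis, rose. It measured 5.36, 5.10 and 4.80 log2 on the wild-type arrays and 6.85, 6.67 and 6.04 on the mutant arrays, a difference of 1.43 ± 0.22 log2 (limma adjusted p = 0.00606). Both group means of Boll lay below the background mark. Among 19 measured germ cell RNA-binding proteins Boll and Nanos1 rose (Nanos1 by 0.50 log2), Msi1 fell by 0.61 log2 and 16 did not pass. The shares were 10.5% higher and 5.26% lower, against 2.64% and 4.3% of all genes. Nanos1 was below the background mark on all 6 arrays, with means of 5.91 and 6.40 log2. The calls of Nanos1 and Msi1 were lost with single arrays left out, any but mutant 6 for Nanos1 and any but wild type 5 for Msi1.

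Germ cell identity genes changed in both directions. Of 20 measured, Sohlh2, an oocyte transcription factor, rose by 0.64 log2, and Dppa3, Utf1, Dnd1 and Prdm1, which mark less differentiated germ cells, fell, while 15 did not pass (median difference 0.02 log2). The shares were 20.0% lower and 5.0% higher, against 4.3% and 2.64% of all genes. Dppa3 measured 9.94, 10.00 and 10.08 log2 on the wild-type arrays and 7.58, 8.88 and 8.90 on the mutant arrays. It was lowest on mutant 3, where Stra8 was highest (limma adjusted p = 0.0202). Mael, of the germ cell piRNA pathway, measured 8.97, 9.70 and 8.34 log2 on the wild-type arrays and 10.16, 9.75 and 9.17 on the mutant arrays, with overlap between the groups (limma adjusted p = 0.316). The number of falls was 0 on leaving out wild type 1 or 2, 1 on leaving out wild type 5 and 2 on leaving out mutant 3 or 4. The call of Sohlh2 ended without wild type 1, wild type 2 or mutant 4, and also without mutant 3, where another gene of the list passed.

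Signals that act upstream of Stra8 changed in part. Cyp26b1, which degrades retinoic acid, measured 9.56, 9.53 and 8.97 log2 on the wild-type arrays and 7.39, 8.14 and 7.04 on the mutant arrays. It fell by 1.83 ± 0.27 log2 (limma adjusted p = 0.00501), and its call was kept in all 15 alternatives. Of the enzymes that make retinoic acid, Aldh1a1 fell by 1.17 and Aldh1a2 rose by 0.52 log2, and the binding protein Crabp1 rose by 1.02. In all 2 of 19 measured retinoic acid genes rose, 2 fell and 15 did not pass, the receptors Rara, Rarb and Rarg among them with differences of -0.31, 0.34 and -0.02 log2 (these receptors were named after their values were seen). The call of Aldh1a2 ended without any 1 of the 6 arrays, and that of Crabp1 without wild type 1. Of the list 10.5% were called in each direction, against 2.64% of all genes called higher and 4.3% called lower.

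In the BMP list 5 of 19 genes rose, 1 fell and 13 did not pass (median difference 0.31 log2). The shares were 26.3% higher and 5.26% lower, against 2.64% and 4.3% of all genes. Bmp2, a ligand made by pregranulosa cells, rose by 2.11 ± 0.16 log2 (limma adjusted p = 0.000283). Gata2 rose by 1.88 ± 0.14, and the homeobox genes Msx1 and Msx2, targets of BMP signals, by 1.27 and 1.14 log2. Id1, Id2, Id3 and Id4, listed beside them, did not pass, with differences of 0.42, 0.31, -0.05 and 0.22 log2. Nor did Bmp5 and Bmp7 (-0.99 and -0.38 log2). Bmp4 fell by 1.09 ± 0.11 log2 (limma adjusted p = 0.000869). Bmp2, Gata2, Msx1, Msx2 and Bmp4 kept their calls in all 15 alternatives. The fifth riser was Bmpr1b, a BMP receptor, by 0.93 log2, and Zglp1, a germ cell factor downstream of BMP that was counted with the meiotic genes, rose by 0.57 log2 to a mutant mean close above the background mark. Bmpr1b, Zglp1, the Id genes, Bmp5 and Bmp7 were chosen after their values were seen.

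Markers of the somatic cells that make these signals moved with them. Of 8 Sertoli cell markers 7 fell (median difference -2.13 log2), among them Sox9, the gene targeted in the mutant. Their summed linear level was 8730 to 9940 on the wild-type arrays and 1290 to 2860 on the mutant arrays. All 4 measured Leydig cell markers of 5 listed fell (median difference -3.81 log2), with sums of 11800 to 12900 and 365 to 3080. All 7 pregranulosa cell markers, Bmp2 among them, rose (median difference 1.90 log2), with sums of 1180 to 1270 and 4220 to 5180. Of all genes 4.3% were called lower and 2.64% higher. Mutant 4 had the highest Sertoli and Leydig sums and the lowest pregranulosa sum of the mutant arrays. The part of these cell types in the changes of retinoic acid, BMP and male path genes was not tested.

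Of 13 measured genes of the male germ cell path, which includes factors that hold meiosis back, 6 fell, 1 rose and 6 did not pass, with a median difference of -0.83 log2. The share that fell was 46.2%, against 4.3% of all genes. Lefty2 and Lefty1, inhibitors of Nodal signalling and also its targets, fell by 2.37 and by 2.03 log2, Tdrd5, of the piRNA pathway, fell by 1.25 and Nodal fell by 0.91. Nanos2, the RNA-binding protein that represses Stra8 in male germ cells, measured 7.78, 8.03 and 6.83 log2 on the wild-type arrays and 6.30, 6.81 and 5.82 on the mutant arrays, every mutant value below the wild-type ones, without passing (difference -1.24 ± 0.32 log2, limma adjusted p = 0.059). It passed without wild type 5 or mutant 4 and with numbers 5 and 6 as a batch, among others (adjusted p from 0.00225 to 0.213 over its alternatives). The single riser was Cdkn1c, a cell cycle inhibitor that somatic cells also express (0.84 log2). The number of falls was 1 when wild type 1 was left out and 3 when mutant 3 was, and the call of Cdkn1c also ended without wild type 1. The call of Lefty2 ended without wild type 1, wild type 5 or mutant 3, that of Lefty1 without wild type 1, and that of Tdrd5 without wild type 1 or 2 or mutant 3 or 6. Nodal kept its call in all 15 alternatives.

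Chromatin repressors known to silence germline genes in other cells were called at a rate close to that of all genes. Of 26 genes Hells, a chromatin remodeller, rose by 0.51 log2, Max, the DNA-binding partner of MGA, fell by 0.53 log2 and 24 did not pass (median difference -0.05 log2). The share was 3.85% in each direction, against 2.64% of all genes called higher and 4.3% called lower. The call of Max (limma adjusted p = 0.0483) and that of Hells (0.0272) ended without any 1 of the 6 arrays, with adjusted p up to 0.216 and 0.168.

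**Figure D3:**
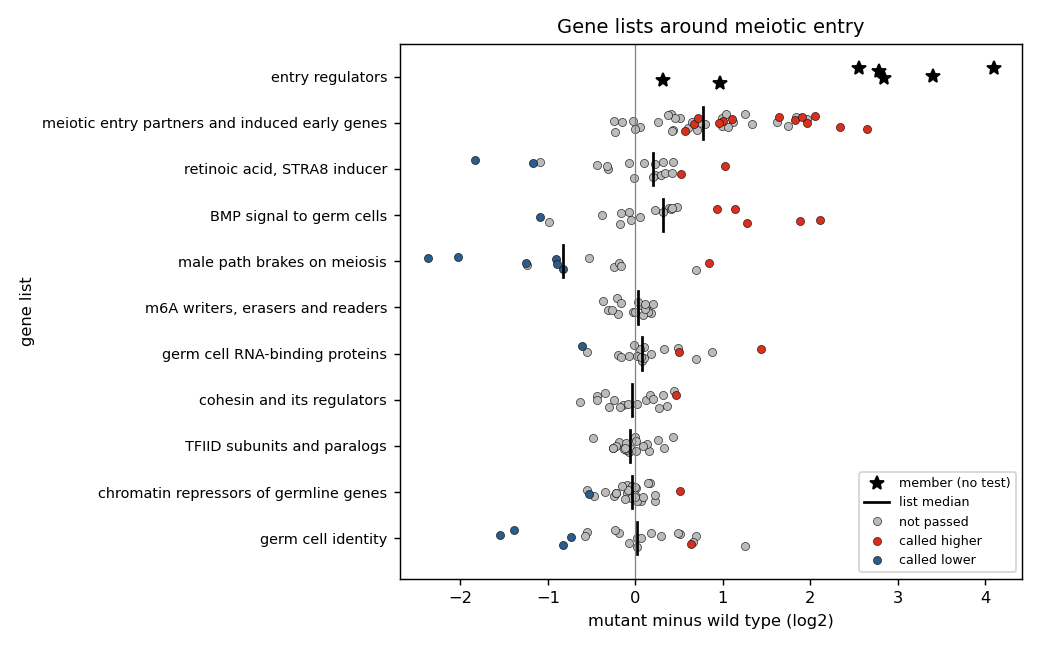
Difference between mutant and wild type (log2, horizontal axis) for each gene of 10 lists and for the 7 regulators (stars, not tested); red and blue points passed limma's adjusted p of 0.05, and black bars are list medians. The meiotic list has a median of 0.77 log2. The list labelled male path brakes, which holds genes of the male germ cell path and not brakes alone, has one of -0.83. The TFIID, m6A, cohesin and chromatin lists centre between -0.06 and 0.03.

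The genes with profiles closest to each regulator were sought by the root mean square distance between centred log2 values over the 6 arrays, among 13392 genes above the background mark in at least 1 group. Taf7l was closest to Sycp3, M1ap and Tex15 (0.37, 0.56 and 0.57 log2), and M1ap to Sycp3, Dmc1 and Stra8 (0.41, 0.46 and 0.47). Meioc was closest to Stra8, Taf7l and Fst (0.52, 0.72 and 0.76). Stra8 was closest to Fst, Lrrn1 and Chrm4 (0.41, 0.46 and 0.46), of which Fst encodes follistatin, a product of pregranulosa cells. Fst measured 10.74, 10.31 and 10.85 log2 on mutants 3, 4 and 6, and Lrrn1 10.52, 10.28 and 10.75. Among the mutant arrays both were thus highest on mutant 6, where Stra8 was lowest. Rec8 was closest to Chrm4, Gdpd2 and Mbnl3 (0.17, 0.26 and 0.26). Ythdc2 was closest to Tiparp, Fat4 and Npr2 (0.05, 0.11 and 0.11), and Dazl to Zbtb34, Slc35d1 and Pigh (0.02, 0.03 and 0.03). Distances are small for genes that differ little, so they are to be compared for 1 regulator at a time. They include the difference between the groups, by which Stra8 and others were chosen, so a small distance need not mean a shared order of the mutant arrays.

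The stretches upstream of the regulators' starts were compared as a description. RefSeq promoters (GRCm38.p6) were found for 6 of the 7, all but Ythdc2, and the 250 bases before each start were searched on both strands for 7 motifs: CNCCTCAG (linked to STRA8), CACGTG (E-box), AGGTCA (core of retinoic acid receptor sites), GCGGGAA (E2F), CCAAT, TGACGTCA (cAMP response element) and GGGCGG (GC box). Shown are Stra8 (chr6:34920698-34920947, plus strand), Rec8 (chr14:55617916-55618165, plus), Meioc (chr11:102665335-102665584, plus) and Taf7l (chrX:134476491-134476740, minus), since the first 3 hold several CCAAT motifs and Taf7l the E-box. Capitals mark every match of the 7 motifs on either strand, and each sequence runs 5′ to 3′ towards the start.
Stra8: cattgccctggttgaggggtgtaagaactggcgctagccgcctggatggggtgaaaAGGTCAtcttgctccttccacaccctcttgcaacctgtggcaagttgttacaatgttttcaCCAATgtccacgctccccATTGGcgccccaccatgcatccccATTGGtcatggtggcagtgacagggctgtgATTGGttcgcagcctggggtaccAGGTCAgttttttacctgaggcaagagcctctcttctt
Rec8: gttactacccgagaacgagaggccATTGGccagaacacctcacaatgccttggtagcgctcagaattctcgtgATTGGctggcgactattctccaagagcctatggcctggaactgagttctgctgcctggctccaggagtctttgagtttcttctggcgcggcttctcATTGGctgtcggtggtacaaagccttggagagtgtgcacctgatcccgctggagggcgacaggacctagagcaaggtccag
Meioc: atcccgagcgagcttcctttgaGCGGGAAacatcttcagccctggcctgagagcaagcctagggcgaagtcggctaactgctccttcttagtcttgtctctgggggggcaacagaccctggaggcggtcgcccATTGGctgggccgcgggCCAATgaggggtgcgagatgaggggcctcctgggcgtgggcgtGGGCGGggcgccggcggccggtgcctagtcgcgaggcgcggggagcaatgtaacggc
Taf7l: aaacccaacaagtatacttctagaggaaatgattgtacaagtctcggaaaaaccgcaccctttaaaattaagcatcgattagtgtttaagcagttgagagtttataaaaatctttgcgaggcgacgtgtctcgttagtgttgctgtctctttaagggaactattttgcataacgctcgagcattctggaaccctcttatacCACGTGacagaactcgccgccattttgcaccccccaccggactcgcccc

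Stra8 held 4 CCAAT motifs, found 133, 115, 91 and 61 bases before the start, Rec8 held 3 and Meioc 2. Of all 32851 promoters 33.8% held at least 1 in the same window, 10.1% at least 2, 2.79% at least 3 and 0.84% at least 4. Dazl held 1, and M1ap and Taf7l held none in this window. Stra8 was also the single one of the 6 with AGGTCA, which occurred 194 and 38 bases before its start, where 14.0% of all promoters held at least 1 and 1.36% at least 2. Taf7l had an E-box 49 bases before its start (6.02% of all promoters), Meioc a match to GCGGGAA at 228 bases (3.82%) and M1ap a match to the reverse complement of CNCCTCAG at 111 bases (6.42%). The GC box lay 57 bases before the start of Meioc and 56 before that of M1ap (32.7% of all promoters). None of the 6 held TGACGTCA (1.55%). Among the promoters of the 42 starts of other measured meiotic genes, 40.5% held CCAAT, 23.8% GCGGGAA, 23.8% CACGTG, 14.3% CNCCTCAG, 19% AGGTCA, 40.5% GGGCGG and 2.38% TGACGTCA. The motifs do not overlap one another in these 4 sequences, and such matches are letters in a window, not shown sites of binding.

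CpG content set the promoters apart from each other. The ratio of observed to expected CpG was 1.13 for Taf7l, above 98.6% of all promoters, 0.80 for Meioc and 0.71 for Dazl. It was 0.51 for Rec8, 0.39 for M1ap and 0.27 for Stra8, against a median of 0.37 over all promoters. The 2 regulators of the list with the largest increases differed in this, with Meioc above 80.8% of all promoters and Stra8 above 38.8%.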

How the data were processed

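Each of the 6 samples was hybridised to 1 array from 300 ng of total RNA, per the labels' protocols. The deposited log2 values are RMA output, per the submitters' processing notes; version and settings of RMA: not given in the sources used here. RMA equalises the distributions of the arrays, so a general change in RNA content cannot be seen. The 6573 rows with identifiers below the lowest annotated one were left out of 34760, which left 28187 probe sets. Where a gene had several probe sets, the one brightest on average over the 6 arrays stood for it. The annotation table named 1 gene for 21640 probe sets, several for 1321 and none for 5226.

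The mutant was set against wild type in limma 3.58.1 under R 4.3.3 (lmFit, eBayes, 2-sided, Benjamini-Hochberg over 28187 probe sets, threshold 0.05). Errors beside differences are moderated standard errors. Precision is limited by the number of arrays. The fit was tested on simulated data. The 7 members and all lists were chosen with earlier results of these data known. Named from each list were the called genes with the largest changes, up to 4 in each direction, or the 2 brightest where none passed, together with set paralogs, Ddx4 and Mael; others are marked. Motif positions count back from the annotated start. Alternatives were normalizations, a filter on dim probe sets, eBayes settings, array weights, a batch term for numbers 5 and 6 and leaving out arrays. Figures used matplotlib 3.10.9.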

Additional observations from a re-analysis of the deposited data

How the results depend on the processing

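No paired analysis was possible because the 2 groups share no replicate number. The differences of the 7 regulators kept their sign in each alternative run and moved by less than the spread between replicates, except that of Taf7l without wild type 5 and mutant 3 together (1.73 log2 in place of 2.84; arrays chosen after seeing the data). With 1 array left out they ran from 3.10 to 3.66 log2 for Stra8, 3.67 to 4.64 for Meioc, 0.84 to 1.11 for Ythdc2, 2.40 to 2.68 for Rec8, 0.23 to 0.38 for Dazl, 2.28 to 3.42 for Taf7l and 2.19 to 3.30 for M1ap.

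Counts of calls moved more. Over all genes 527 were higher and 857 lower. With 1 array left out these counts ran from 262 to 546 and from 330 to 746. A batch term for numbers 5 and 6 gave 820 higher. Leaving out wild type 5 and mutant 4 gave 199 and 405, leaving out wild type 5 and mutant 3 gave 163 and 239, and numbers 1 to 4 alone gave 513 lower. Of 210 genes on the 10 lists 26 were higher and 14 lower, with 7 to 40 and 4 to 12 when 1 array was left out. The batch term gave 40 higher, each pair of arrays left out gave 6, and without wild type 5 and mutant 3 there were 7 lower. The 13 meiotic genes called higher became 6 with trend and robust, 22 with array weights, with the batch term or among numbers 1 to 4 alone, and 1 without either pair. With single arrays left out they ran from 2 to 28. Fewer arrays leave fewer residual degrees of freedom; the cause of the other shifts was not tested. Of the calls and non-calls of single named genes, 480 were kept over the alternatives, 122 were lost and 9 gained, with no reversal. Levels below 6.67 log2 in wild type limit the folds of Stra8 and Meioc. Taf7l was below that mark on wild type 5 alone, and without that array its difference was smaller (2.28 log2 in place of 2.84).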
